A study of Arabidopsis thaliana with 6 samples.

Results

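The genes described are the plant lipid-transfer proteins LTP1 to LTP6 and the DIR1 type of Arabidopsis thaliana. The set was named as 8 loci: AT2G38540 (LTP1), AT2G38530 (LTP2), AT5G59320 (LTP3), AT5G59310 (LTP4), AT3G51600 (LTP5), AT3G08770 (LTP6), AT5G48485 (DIR1) and AT5G48490. Members were chosen by locus, and the set was drawn up with the dexamethasone and mock values of these same arrays in view, AT5G48490 being already known as one of the larger falls. Only AT5G48490 was joined to a probe set with exactly 1 gene, which makes it 1 of 8 loci and 1 of 16746 such probe sets. Measured means joined in this way throughout. Probe sets with several genes were not searched for the other loci. LTP1 to LTP6 and DIR1 were not analysed here, so the account follows AT5G48490 and sets it beside other lipid-transfer protein genes. The DIR1-type label could not be checked against a sequence, and it is used as the set's name for AT5G48490.

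The line is 35S::PLT2-GR and whole seedlings were used. In it, the 35S promoter drives a fusion of the transcription factor PLT2 with the hormone-binding part of the glucocorticoid receptor. Dexamethasone, a synthetic steroid, lets such a fusion enter the nucleus. The dexamethasone group comprised 3 arrays of seedlings given 10 µM dexamethasone for 6 h, and the mock group comprised 3 arrays of seedlings of the same line given the solvent DMSO for the same time. Seedlings were 4 days old when they were moved to liquid culture, and treatment began the next day. Each flask held about 50 seedlings, and the labels number the samples of each group as biological replicates. Each array is taken here to pool the seedlings and the tissues of 1 flask, which the labels do not state. No dexamethasone-treated seedlings without the fusion are among the arrays, so responses to the steroid and to the fusion cannot be told apart. In such bulk samples, fewer cells of a type and less RNA per cell cannot be told apart either.

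Lipid-transfer proteins are small secreted proteins whose conserved cysteines form disulfide bridges around a tunnel that holds a fatty acid or another lipid. Type I proteins, among them LTP1 to LTP6, are abundant in epidermal walls and are linked to the cuticle and to responses to drought and pathogens. DIR1, a type IV protein, is required for systemic acquired resistance, the state in which leaves far from an infected leaf become more resistant, and it moves through the phloem. A further branch is held to the outer face of the plasma membrane by a GPI anchor and is linked to the export of wax and suberin lipids.

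AT5G48490 was lower in every dexamethasone array than in every mock array. Its log2 probe set values were 7.07, 6.82 and 7.03 in dexamethasone seedlings, against 8.89, 8.89 and 8.69 in mock seedlings. The groups stood far apart, since the lowest mock value exceeded the highest dexamethasone value by 1.62, while the 3 values of a group spanned only 0.252 in dexamethasone and 0.203 in mock seedlings. The group means were 6.97 ± 0.13 in dexamethasone seedlings and 8.83 ± 0.12 in mock seedlings (SD, n = 3 each). The log2 difference, dexamethasone minus mock, was -1.86 with a moderated standard error (SE) of 0.11 and a 95% interval from -2.12 to -1.59. This is a 3.62-fold lower value. It is given as a description, because the set was proposed with this comparison in view.

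**Figure D1:**
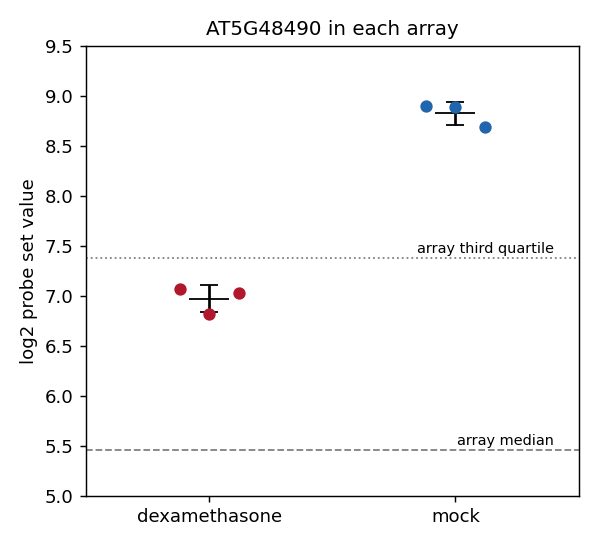
Log2 probe set value of AT5G48490 (vertical axis) in the 3 dexamethasone and 3 mock arrays; points are arrays, the wide tick is the group mean and the bar its SD. The dexamethasone values lie from 6.82 to 7.07, under the third quartile (dotted line) and above the median (dashed line), both averaged over the arrays, while the mock values lie from 8.69 to 8.89, above both.

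The fitted model (limma, adjusted over 17504 probe sets with a gene, threshold 0.05) put 1 of 1 measured members past the threshold, as a fall. Over all those probe sets 18.6% passed, 9.54% as falls and 9.04% as rises, and the groups did not overlap for 38.1%. Nothing is read from the member's call beside these shares.

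AT5G48490 gave values away from the dim end of the arrays in both groups. In dexamethasone seedlings they lay between the median of each array and the third quartile, which was 7.37 to 7.40 there, and in mock seedlings above the third quartile, 7.36 to 7.37. Its spread within groups was not unusual among all probe sets with a gene, bright or dim. The pooled SD was 0.126, against a median of 0.158 over them, and 36.1% of them had a smaller one. AT5G48490 was not compared with probe sets of like level alone. Ordered by size among the single-gene probe sets past the threshold as falls, it was number 5. The nearest above it were AT5G62330 and AT3G18450, both at -1.87, and the nearest below it were AT4G13440 at -1.83 and AT1G05650 at -1.82. The moderated SE was 0.11 for AT5G48490 and 0.23 for AT5G62330, 0.29 for AT3G18450, 0.23 for AT4G13440 and 0.45 for AT1G05650. AT1G05650 did not pass when any 1 mock array (0.0853 to 0.0894) or dexamethasone replicate 2 (0.0797) was left out, or in the fit of all probe sets (0.0638). The gaps between neighbours in this order are smaller than their SEs, and differences between these genes were not tested.

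With 1 array left out the difference of AT5G48490 lay between -1.92 (without mock replicate 3) and -1.78 (without dexamethasone replicate 2). This is a description only, since the gene was already known as one of the larger falls. Hybridisation of its probe set with the transcript of DIR1 or another relative was not checked, because neither probe nor transcript sequences were used here.

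The 2 measured genes listed as relatives of the same type did not share this fall. AT5G55450 had log2 values of 5.15, 5.24 and 5.19 in dexamethasone seedlings, against 4.75, 4.81 and 4.93 in mock seedlings. All 3 dexamethasone arrays were thus above all 3 mock arrays. The gene rose 1.29-fold (log2 difference 0.36, SE 0.09, limma adjusted p 0.0342). That call was lost in every fit without 1 array except the one without mock replicate 3, with the adjusted p between 0.0671 and 0.118, and it was lost with the replicate number as a block (0.0765), with an intensity trend (0.103) and in the fit of all probe sets (0.0528). AT5G55410 had values of 3.44, 3.70 and 3.67 in dexamethasone seedlings, against 3.75, 3.68 and 3.98 in mock seedlings, so the groups overlapped. Its log2 difference was -0.20 (95% interval -0.49 to 0.09, limma adjusted p 0.312). Both intervals, 0.15 to 0.58 for AT5G55450 and the one just given, lie outside that of AT5G48490, but a test of the difference between the genes was not run. The interval of AT5G48490 is only a description, since that gene was already known as one of the larger falls.

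Lipid-transfer proteins of the LTP1 kind outside the named set (type I, the genes numbered LTP7 to LTP12) had 4 of 6 loci measured. AT4G33355 fell 1.30-fold. Its values were 3.95, 4.03 and 4.13 in dexamethasone seedlings, against 4.42, 4.37 and 4.46 in mock seedlings, with a log2 difference of -0.38 (SE 0.09, limma adjusted p 0.0302). The groups did not overlap, but the difference is small, and the adjusted p was 0.0678 with the replicate number as a block and 0.149 with an intensity trend. It was between 0.0705 and 0.0942 without any 1 of the mock arrays, and 0.085 and 0.0786 without dexamethasone replicates 1 and 2. AT5G01870 lay above the third quartile of every array, with values of 8.48, 8.53 and 8.27 in dexamethasone seedlings, against 8.53, 8.64 and 8.64 in mock seedlings. Its log2 difference was -0.18, with a 95% interval of -0.42 to 0.06 and an adjusted p of 0.283 by limma. The other two, AT2G18370 and AT2G15325, had differences of -0.28 and 0.16 and overlapping groups.

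Of the GPI-anchored lipid-transfer proteins 9 of 19 listed loci were measured, and 3 fell while none rose. Over all probe sets with a gene 9.54% fell and 9.04% rose, and nothing is read from so small a count. AT2G48130 had values of 6.13, 6.63 and 6.66 in dexamethasone seedlings, against 7.44, 7.32 and 7.05 in mock seedlings. The groups did not overlap, and the gene fell 1.74-fold (log2 difference -0.80, SE 0.17, limma adjusted p 0.0215). It did not pass without mock replicate 1 (0.0756) or 2 (0.0685), nor with the replicate number as a block (0.0569).

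AT2G44290 and AT2G44300 fell together. AT2G44290 had 6.28, 6.17 and 6.05 in dexamethasone seedlings, against 6.82, 6.61 and 6.90 in mock seedlings, 1.52-fold lower (log2 difference -0.61, SE 0.11, limma adjusted p 0.0133). AT2G44300 had 6.14, 6.20 and 6.29 in dexamethasone seedlings, against 6.84, 6.54 and 6.86 in mock seedlings, 1.45-fold lower (log2 difference -0.54, SE 0.12, limma adjusted p 0.0214). Cross-hybridisation between the pair was not checked, so these counts may not be independent. Without mock replicate 1 neither passed, at 0.0529 for AT2G44290 and 0.0784 for AT2G44300. AT2G44300 also did not pass without mock replicate 3 (0.068) or without dexamethasone replicate 1 (0.0654) or 2 (0.0613).

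The other GPI-anchored genes did not pass in the fit of all 6 arrays. AT1G62790 lay above the third quartile of every array, with 7.49, 8.08 and 7.87 in dexamethasone seedlings, against 8.18, 8.31 and 8.33 in mock seedlings (log2 difference -0.46, SE 0.16, limma adjusted p 0.0863). It passed as a fall with an intensity trend (0.0155) and without dexamethasone replicate 2 (-0.59, adjusted p 0.0493). AT3G58550 had a difference of 0.14. The remaining 4 had differences from 0.32 to 0.38, and their mock means lay between 2.38 and 3.12. All but AT1G05450, at 3.12, had a mock mean under the lowest first quartile of the mock arrays, 3.05. Of these 4, AT1G73550 passed as a rise without dexamethasone replicate 1 (0.57, adjusted p 0.0274).

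Together these 3 lists held 15 measured genes of 29, of which 4 fell, 1 rose and 10 did not pass. Their median difference was -0.18, beside 0.02 over all 16746 single-gene probe sets, of which 1599 fell and 1531 rose. With the type II and type III genes described next, 44 loci were listed and 29 measured. Of the 29, 17.2% passed, 4 as falls and 1 as a rise, beside 18.7% of the single-gene probe sets. The median difference of the 29 was 0.14. The count past the threshold was 0 of 15 without mock replicate 1, where limma gave 7 at an unadjusted p under 0.05, and 2 of 15 with the replicate number as a block. It was 2 when mock replicate 2 was left out, and 3 for mock replicate 3 and for dexamethasone replicates 1 and 2.

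Type II and type III lipid-transfer proteins, shorter proteins of the same fold of which type III is known from the anther tapetum, had 14 of 15 loci measured. None of the 14 passed by limma, nor in any of the refits, and 1 of them, AT1G43667, had an unadjusted p under 0.05 with a log2 difference of 0.35. AT3G18280 lay above the third quartile of every array, with 8.84, 8.90 and 8.78 in dexamethasone seedlings, against 8.80, 8.83 and 8.80 in mock seedlings. Its values were nearly the same in all 6 arrays, with a log2 difference of 0.03 and a 95% interval from -0.17 to 0.23. Of the 14 genes, 12 had a mock mean under 3.05, the lowest first quartile among the arrays, and 11 of those 12 had a positive difference. The dim end of the arrays moved the same way in general: of the 4839 single-gene probe sets with a mock mean under that value 67.5% had a positive difference (median 0.09), against 47.4% of the 11907 above it (median -0.02). The first quartiles were 3.10 to 3.24 in the dexamethasone arrays and 3.05 to 3.08 in the mock arrays. The part of this shift in the differences of dim lipid-transfer genes was not tested.

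**Figure D2:**
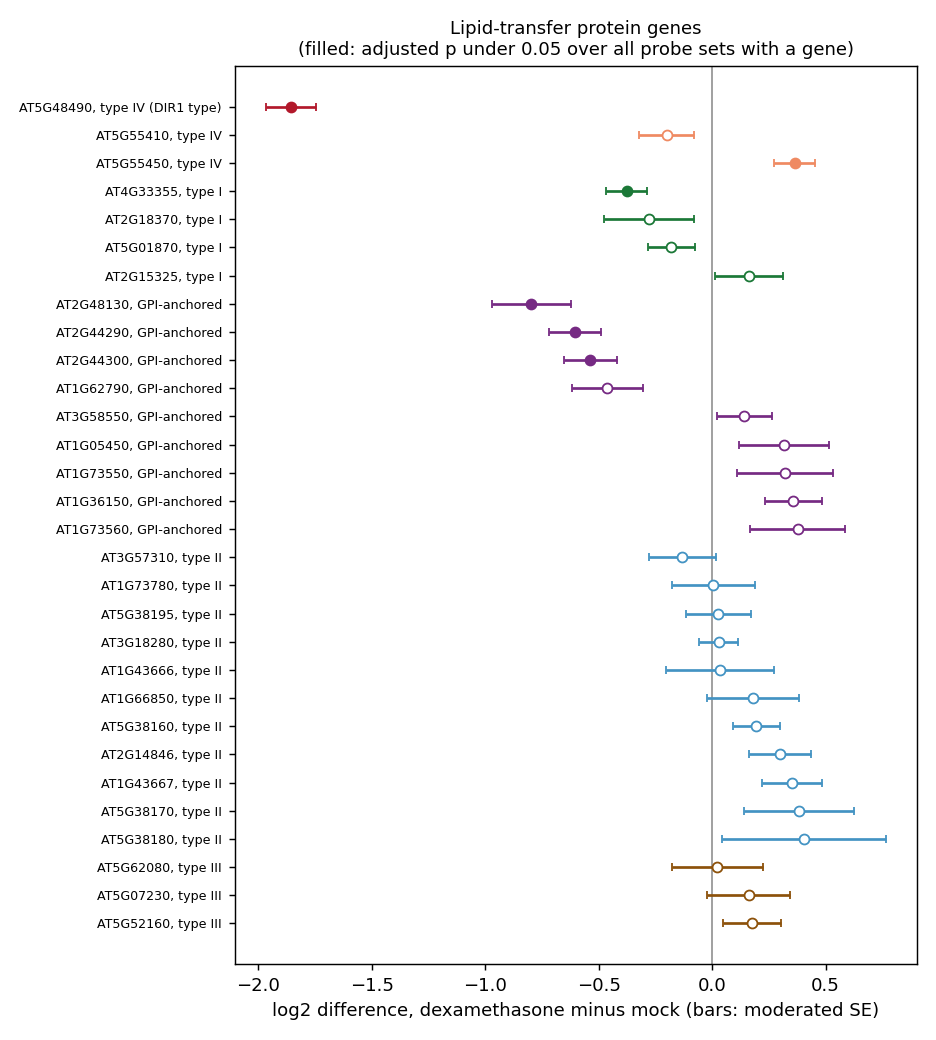
Log2 difference, dexamethasone minus mock, with its moderated SE (horizontal axis) for AT5G48490 and 29 other lipid-transfer protein genes grouped by type, with filled points past an adjusted p of 0.05 over all probe sets with a gene. AT5G48490, already known as one of the larger falls, stands at -1.86, and the other genes lie between -0.80 and 0.40. Of these 29 others, 16 had a mock mean under 3.05. Among all 4839 single-gene probe sets under that value, 17 passed as falls and 177 as rises.

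**Figure D3:**
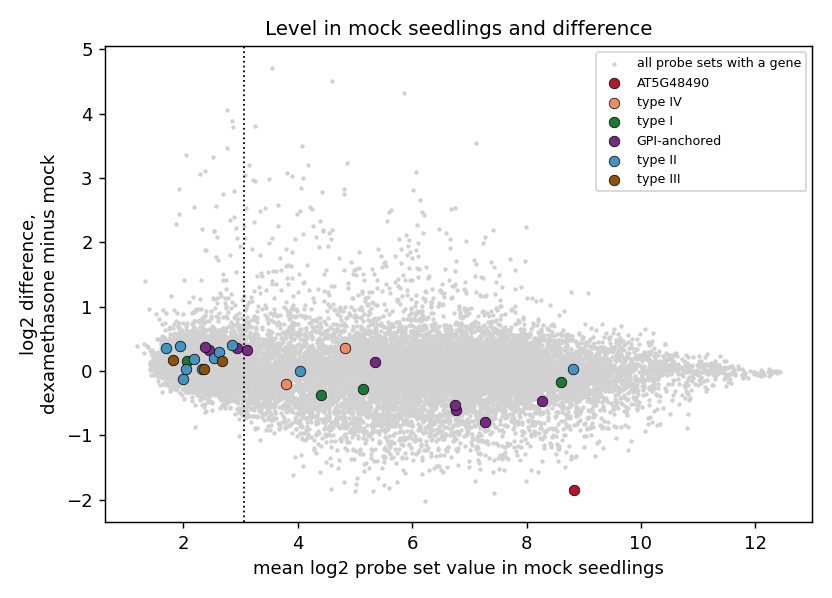
Mean log2 probe set value in mock seedlings (horizontal axis) against the log2 difference, dexamethasone minus mock (vertical axis), for all 17504 probe sets with a gene (grey) and the lipid-transfer protein genes by type; the dotted line marks the lowest first quartile, 3.05. AT5G48490 is at a mock mean of 8.83, while 16 of the other 29 genes lie left of the line.

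The gene that follows AT5G48490 on chromosome 5 differed in the opposite direction. In RefSeq's gene order on the TAIR10.1 assembly, DIR1 lies just before AT5G48490 and AT5G48500 just after it. AT5G48500 had 8.20, 8.19 and 7.94 in dexamethasone seedlings, against 7.25, 7.58 and 7.59 in mock seedlings. It rose 1.55-fold (log2 difference 0.64, SE 0.13, limma adjusted p 0.0182). That call was lost without mock replicate 1 (0.054), dexamethasone replicate 1 (0.058) or dexamethasone replicate 2 (0.0586). DIR1 itself was not analysed here.

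The single-gene probe sets with profiles most like that of AT5G48490 were AT4G00910, AT1G71740 and AT5G43570. Likeness was the root mean square distance over the 6 arrays, after each gene's own mean was taken off its log2 values. It was 0.0945 for AT4G00910, which had 5.52, 5.21 and 5.43 in dexamethasone seedlings, against 7.08, 7.15 and 7.08 in mock seedlings. Both genes had their lowest value in dexamethasone replicate 2. AT1G71740 was at a distance of 0.164, with 4.64, 4.59 and 4.47 in dexamethasone seedlings, against 6.16, 6.24 and 6.13 in mock seedlings. AT5G43570 was at 0.174, with 2.96, 2.47 and 3.02 in dexamethasone seedlings, against 4.48, 4.43 and 4.26 in mock seedlings. Their log2 differences were -1.72, -1.61 and -1.57, and since likeness was measured on these same values they are given without a test. The dexamethasone values of AT5G43570 lie at the dim end of the arrays, so its difference is approximate.

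**Figure D4:**
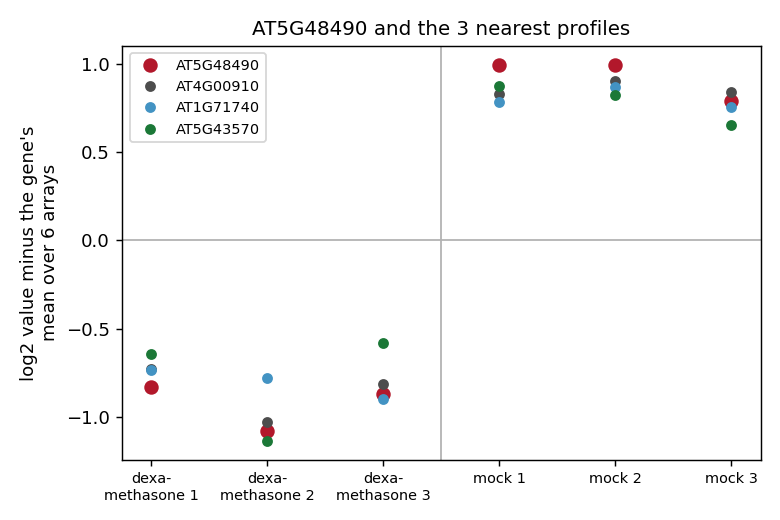
Log2 value minus the gene's own mean over the 6 arrays (vertical axis) for AT5G48490 and the 3 nearest profiles in each array (horizontal axis). All 4 genes are below their mean in the 3 dexamethasone arrays and above it in the 3 mock arrays.

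Other genes of the processes in which lipid-transfer proteins take part were sparsely covered, with 14 of 96 listed loci measured, and 4 of the 14 fell while 1 rose. Over all probe sets with a gene 9.54% fell and 9.04% rose, and with so few loci measured nothing is read from the count. Of the genes of systemic acquired resistance, 3 of 24 were measured. AT5G03350 fell 1.48-fold, with 2.70, 3.07 and 2.86 in dexamethasone seedlings, against 3.46, 3.50 and 3.37 in mock seedlings (log2 difference -0.56, SE 0.12, limma adjusted p 0.018). The groups did not overlap, though the dexamethasone values lie under the first quartiles of their arrays, which makes the fold approximate, and the call was lost when mock replicate 1 (0.0643) or 2 (0.0627) was left out. The other two measured genes of this list did not pass: AT4G12490 had a difference of -0.64, and BSMT1, a salicylic acid methyltransferase gene, 0.23. AT4G12490 passed as a fall with the block (0.024), without the 30% dimmest probe sets (0.0463), with an intensity trend (0.0152) and when dexamethasone replicate 3 was left out (-0.84, adjusted p 0.0299).

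Of the genes for cutin and wax, to whose transport some lipid-transfer proteins are linked, 5 of 44 were measured, and 2 fell and 1 rose. AT5G33370 fell 1.52-fold, with 2.30, 2.71 and 2.86 in dexamethasone seedlings, against 3.22, 3.25 and 3.22 in mock seedlings (log2 difference -0.61, SE 0.15, limma adjusted p 0.0311). Its dexamethasone values lie under the first quartiles of their arrays, so this fold is approximate. AT5G61590, which encodes DEWAX, a repressor of wax synthesis genes, fell 1.37-fold, with 7.61, 7.27 and 7.39 in dexamethasone seedlings, against 7.83, 7.84 and 7.96 in mock seedlings (log2 difference -0.45, SE 0.12, limma adjusted p 0.0358). SHN3, an activator of cuticle genes, had 2.67, 2.51 and 2.59 in dexamethasone seedlings, against 2.21, 2.28 and 2.11 in mock seedlings, and rose 1.31-fold (log2 difference 0.39, SE 0.10, limma adjusted p 0.0314).

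These 3 calls were fragile. Without any 1 array SHN3 did not pass (adjusted p 0.053 to 0.0925), nor did it with quantile normalization (0.0739), the replicate number as a block (0.0776), an intensity trend (0.103) or all probe sets (0.0506), and its values lie at the dim end of the arrays. With 1 array left out DEWAX passed without dexamethasone replicate 1 (0.0279), and had 0.0851 to 0.104 without a mock array and 0.0958 and 0.0857 without dexamethasone replicates 2 and 3. It had 0.0712 with the block and 0.0601 in the fit of all probe sets, and passed with quantile normalization (0.0316) and an intensity trend (0.00423). AT5G33370 had 0.0885, 0.0875 and 0.0816 without mock replicates 1, 2 and 3, 0.0634 without dexamethasone replicate 2 and 0.0573 in the fit of all probe sets.

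Of the abscisic acid and dehydration genes, among which several type I lipid-transfer genes are usually counted, 6 of 18 were measured and 1 fell. The dehydrin gene LTI30 had 6.77, 7.04 and 7.24 in dexamethasone seedlings, against 7.74, 7.79 and 7.72 in mock seedlings. It fell 1.67-fold (log2 difference -0.74, SE 0.13, limma adjusted p 0.0105) and passed in each fit without 1 array. COR15A, COR15B, KIN1, KIN2 and COR47 did not pass, with differences from -0.24 to 0.39. COR47 passed as a fall with an intensity trend (0.027), and KIN1 as a rise without the 30% dimmest probe sets (0.0396). No suberin gene of the 10 listed was joined to a probe set with exactly 1 gene.

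Of the cell type markers, 6 of 32 were measured. The root hair expansin genes EXPA7 and EXPA18 (2 of 5 listed) had log2 differences of -1.23 and -1.34 and both fell. The guard cell regulator FMA (1 of 4 listed) fell, with a difference of -0.63 and a limma adjusted p of 0.017, or 0.051 and 0.0559 when mock replicate 1 or 3 was left out. The mesophyll genes RCA and LHCB4.1 (2 of 5 listed) were at 10.8 to 10.9 and 9.89 to 10.0 in dexamethasone seedlings, against 11.1 to 11.2 and 10.1 to 10.2 in mock seedlings. RCA fell (log2 difference -0.32, limma adjusted p 0.0475), a call lost in each fit without 1 array (0.0701 to 0.139), with the replicate number as a block (0.101), with robust eBayes (0.0504) and in the fit of all probe sets (0.0674). LHCB4.1 had a difference of -0.23 and an adjusted p of 0.12, or 0.0137 with an intensity trend. In all, 4 of the 6 measured markers fell, beside 9.54% of all probe sets with a gene. With 6 of 32 listed markers measured, nothing is read from this count. The epidermal receptor kinase gene CR4 (1 of 9 listed) had a difference of -0.19 and overlapping groups. Leaf and root genes were thus both present, as the label of whole seedlings says. No xylem or phloem marker was measured, and the part of any cell type in the fall of AT5G48490 was not tested.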

How the data were processed

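Gene expression was measured on 6 arrays of whole seedlings, 3 of dexamethasone-treated and 3 of mock-treated seedlings. The authors deposited log2 probe set values; per the submitters' processing notes the tools were RMA and limma 3.24.15, with no role stated, and the build is not given in the sources used here. Of 38408 probe sets, 17504 are paired with a gene and 16746 with exactly 1. Gene IDs were joined to RefSeq loci (TAIR10.1), which 16601 matched.

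Dexamethasone and mock arrays were compared on the deposited log2 values by lmFit and eBayes of limma 3.58.1 under R 4.3.3, two-sided, with Benjamini-Hochberg adjustment over 17504 probe sets and a threshold of 0.05. A fold is 2 raised to the size of the log2 difference. The code was tested on simulated data. No sequence of a member was read, and 1 measured locus leaves no set of members to count over.

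The members and lists were chosen with earlier results of these data known. The RefSeq table used here holds no product descriptions, so the wider family was taken from lists of loci. The types given to these loci, GPI-anchored or I to IV, come from general knowledge and were not checked against an annotation. The type II and III lists were added after the files were seen. Named were AT5G48490, up to 4 rises and 4 falls of the wider family, up to 3 genes per pathway list, the 3 nearest profiles and the next genes on the chromosome. The other family genes, those around AT5G48490 in size of fall, the pathway genes that did not pass and the cell type markers were picked with their values known.

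Refits used quantile normalization, a block for the replicate number, arrays centred on their medians and leaving out the 30% dimmest probe sets. Others used an intensity trend, robust eBayes, all probe sets and leaving out each array. An adjusted p of 0.01 was applied to the main fit. Same-numbered arrays had correlations of deviations from group means of -0.00987, -0.0163 and 0.0305. Differently numbered arrays had -0.0318 to 0.0466, so no pairing by number was seen in these values. With so few arrays they cannot show whether same-numbered flasks were grown or handled together. The number of arrays limits the precision.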

Additional observations from a re-analysis of the deposited data

How the results depend on the processing

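The log2 difference of AT5G48490 kept its direction and its side of the threshold in all 14 alternative settings, between -1.92 and -1.78. The block, the dim filter and the intensity trend leave the difference itself unchanged. So do robust eBayes, the fit of all probe sets and the stricter threshold. The gene was already known as one of the larger falls, so this is a description only. Leaving out 1 array gave 1724 to 2477 probe sets past the threshold in place of 3252, 0 to 4 of the 15 other lipid-transfer genes in place of 5 and 1 to 4 of the 14 pathway genes in place of 5, with fewer arrays in each fit. Over all probe sets, leaving out a mock array gave 1724, 2017 and 2119 for mock replicates 1, 2 and 3. An adjusted p of 0.01 left 1205 probe sets, and 0 of the 15 and 0 of the 14 by limma, of which 7 and 9 had an unadjusted p under 0.05. With the replicate block 2 of the 15 lipid-transfer genes passed, both among the 5 of the fit without it, and the block changed no call of AT5G48490, while no pairing by number was seen. In the fit of all probe sets 2 of the 14 pathway genes passed. Apart from fewer arrays or a stricter threshold, the cause was not tested. Probe sets under the dim filter have no value in that fit. Signal over background was not analysed here, which limits differences of dim genes.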

Other observations

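The stretch of chromosome 5 around AT5G48490 was looked at after the data were seen. Of the 10 protein-coding genes on either side, 12 of 20 were measured, and by limma 2 rose and 2 fell, with log2 differences from -0.91 to 1.48. Over all probe sets with a gene 9.04% rose and 9.54% fell, and no local pattern is read from these few genes. The 2 that rose, AT5G48500 and AT5G48510, are the next genes after AT5G48490. AT5G48510 had log2 values of 5.28, 4.35 and 4.68 in dexamethasone seedlings, against 2.97, 3.14 and 3.76 in mock seedlings (log2 difference 1.48, SE 0.28, limma adjusted p 0.0139), and its adjusted p was 0.0504 when mock replicate 1 was left out. The 2 that fell were AT5G48430 with a difference of -0.91 and AT5G48540 with -0.80.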
